A study of Homo sapiens with 9 samples.

Results

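The genes described are 10 AP-1 and other immediate early genes: 6 subunit genes of the transcription factor AP-1 (FOS, FOSB, FOSL1, JUN, JUNB and JUND), the zinc finger factor gene EGR1, and IER2, IER3 and PHLDA1. They were chosen by symbol from the 28307 genes of the count table. All 10 passed the filter on low counts, which kept 15619 genes for testing. The cells were SW620, an established human colon cancer line derived from a lymph node metastasis, labelled wild type and grown in suspension on low-attachment plates. For 48 h cultures were given streptomycin (SM) or dihydrostreptomycin (DSM), each at 120 µM, or were left untreated, in 3 libraries each that the series' design text calls biological replicates. In all groups the medium held EGF at 20 ng/mL, basic FGF at 10 ng/mL and insulin at 20 µg/mL, so every library comes from cells under growth factor. SM is an aminoglycoside antibiotic against bacterial ribosomes, and DSM carries an alcohol in place of the aldehyde of its streptose sugar. Everything rests on 1 cell line at 1 dose and 1 time.

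As background, typical immediate early genes are transcribed within minutes of a growth factor, serum or stress signal without new protein synthesis, and their messages are short-lived. EGF and FGF receptors signal through RAS to the kinase ERK, which switches on ternary complex factors bound with SRF at CArG boxes, and these in turn drive FOS and EGR1. FOS family proteins pair with JUN family proteins to form AP-1, while JUN family proteins can also pair with each other. In cells with an activated RAS pathway, which is common in colon cancer, FOSL1 and other late members of the response can stay expressed without acute stimulation. The labels do not say when growth factor was last added before RNA was taken.

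The 250 bases upstream of the start site are shown for the genes on which the results below turn: FOS, FOSB and EGR1, the 3 whose levels varied most across libraries, and JUND and PHLDA1, which were lower with SM. They are RefSeq sequences of GRCh38.p14, written 5′ to 3′ on the gene's strand. RefSeq entries were matched for 8 of the 10 genes, the others being IER3 and FOSL1. Capitals mark CArG boxes (searched under that name), the cAMP response element TGACGTCA and its core TGACG, each on both strands.
EGR1 (chr5:138465229-138465478, strand +): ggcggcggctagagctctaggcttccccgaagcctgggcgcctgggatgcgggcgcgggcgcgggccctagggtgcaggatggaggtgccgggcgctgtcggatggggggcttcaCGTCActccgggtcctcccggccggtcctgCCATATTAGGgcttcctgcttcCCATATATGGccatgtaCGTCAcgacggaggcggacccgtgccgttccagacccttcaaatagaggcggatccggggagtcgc
FOS (chr14:75278578-75278827, strand +): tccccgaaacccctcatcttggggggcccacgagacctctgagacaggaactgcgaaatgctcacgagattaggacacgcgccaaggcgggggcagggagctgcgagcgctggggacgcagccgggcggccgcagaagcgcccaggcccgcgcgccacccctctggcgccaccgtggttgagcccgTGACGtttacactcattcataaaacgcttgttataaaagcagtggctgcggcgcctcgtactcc
FOSB (chr19:45467746-45467995, strand +): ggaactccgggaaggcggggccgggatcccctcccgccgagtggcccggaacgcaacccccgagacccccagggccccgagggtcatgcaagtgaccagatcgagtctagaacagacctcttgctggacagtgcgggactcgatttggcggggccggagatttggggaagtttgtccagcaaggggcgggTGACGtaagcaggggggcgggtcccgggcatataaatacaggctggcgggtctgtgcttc
JUND (chr19:18281623-18281872, strand −): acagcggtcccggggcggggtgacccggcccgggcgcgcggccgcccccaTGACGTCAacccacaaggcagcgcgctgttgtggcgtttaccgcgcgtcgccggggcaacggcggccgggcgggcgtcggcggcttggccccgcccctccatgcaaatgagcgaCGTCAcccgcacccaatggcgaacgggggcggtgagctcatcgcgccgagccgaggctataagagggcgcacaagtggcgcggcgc
PHLDA1 (chr12:76031777-76032026, strand −): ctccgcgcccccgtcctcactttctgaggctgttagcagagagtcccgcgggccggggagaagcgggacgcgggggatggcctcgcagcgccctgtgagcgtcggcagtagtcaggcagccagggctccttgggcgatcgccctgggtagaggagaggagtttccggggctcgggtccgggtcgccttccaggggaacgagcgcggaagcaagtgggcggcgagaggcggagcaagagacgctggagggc
EGR1 holds 2 CArG boxes in this window, a motif present in 1.16% of 35116 promoter windows of the same length. FOS holds none in this window, and sequence further upstream was not searched. JUND holds the full element TGACGTCA, which 1.65% of windows hold and which contains the core on each strand. The core TGACG was found in 7 of the 8 genes, against 21.2% of all windows, and PHLDA1 had none of these letters. The AP-1 site TGANTCA was in 0 of the 8 windows and in 6.57% of all. These are matches of letters in a short window, not measured binding sites.

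Total counts ran from 39315662 reads in SM replicate 2 to 65562227 in untreated replicate 1. Of 10 colon epithelium markers 8 averaged at least 1 CPM (read counts scaled to library size), led by KRT8 at 6445 CPM. Their summed level was 11302 to 13545 CPM with SM, 11594 to 14553 with DSM and 11824 to 14875 without treatment. Fibroblast markers summed to at most 26.9 CPM with COL3A1 and DCN at 0, leukocyte markers to at most 29.4 CPM and endothelial markers to at most 4.42 CPM. The labels number the replicates 1 to 3 in every group, and libraries with the same number deviated together from their group means. Each comparison of treatments is therefore given without the number and, where that changes a call, with the replicate number as a block.

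Levels can be compared between genes only per length. Per kilobase of exon and averaged over all 9 libraries, IER3 led with 249 CPM per kb, followed by FOSL1 with 159 and PHLDA1 with 131. IER3 encodes an inducible survival protein, FOSL1 the AP-1 subunit FRA-1, and PHLDA1 a pleckstrin homology-like domain protein. On these exon lengths IER3 did not overlap any other gene (203 to 288 CPM per kb). FOSL1 (134 to 179.7) and PHLDA1 (107 to 163) overlapped each other. The exon length used for PHLDA1, 8069 bases, is longer than its RefSeq gene (chr12:76025447-76031776). A shorter length would raise PHLDA1 per kb, so its order against FOSL1 and its separation from IER3 depend on the annotation. JUN (46.5), IER2 (37.4) and EGR1 (35.5) formed a middle group whose ranges overlapped. JUNB (25.4) and JUND (20.6) followed, with ranges that overlapped each other, and that of JUNB also overlapped EGR1. FOS averaged 3.397 and FOSB 0.881 CPM per kb. Their ranges, 2.30 to 5.64 and 0.402 to 1.76, lay below those of the other 8 genes and apart from each other. FOSB was the least deeply covered, with 124 to 387 reads per library. Among FOS, FOSB and FOSL1, the gene with the most RNA on the scale of CPM per kb was thus FOSL1. Among JUN, JUNB and JUND it was JUN. No FOS family gene beyond FOS, FOSB and FOSL1 was ranked here. A lower level in a bulk culture can mean fewer expressing cells or less RNA per cell, which cannot be told apart.

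**Figure D1:**
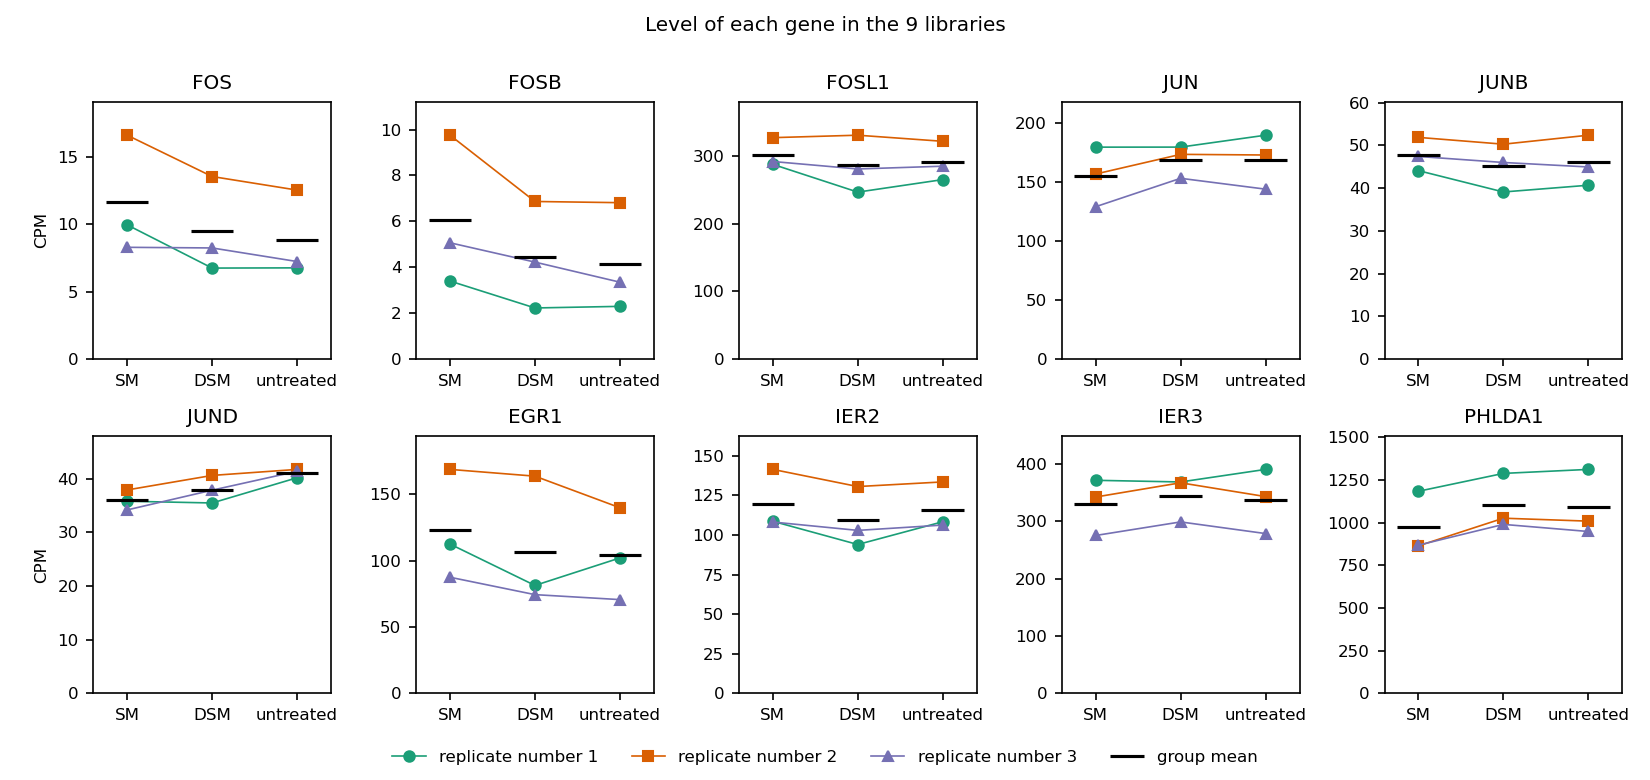
Level of each gene in CPM in the 9 libraries, with SM left, DSM in the middle and untreated right; points are libraries, lines join libraries of the same replicate number, and black bars are group means. Libraries numbered 2 are the highest of each group for FOS, FOSB, FOSL1, JUNB, JUND, EGR1 and IER2, and libraries numbered 1 for JUN, IER3 and PHLDA1.

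FOS and FOSB, whose proteins dimerise with JUN proteins, had the largest log2 fold changes of the 10 genes for SM against untreated. They were called in the blocked fit only, as given below. FOS measured 9.94, 16.6 and 8.28 CPM in SM replicates 1, 2 and 3, 6.75, 13.5 and 8.24 CPM in the DSM replicates and 6.76, 12.5 and 7.23 CPM in the untreated replicates. The library numbered 2 was the highest in each group, and the 3 groups overlapped. FOSB measured 3.403, 9.75 and 5.07 CPM with SM, 2.23, 6.87 and 4.23 CPM with DSM and 2.30, 6.81 and 3.35 CPM without treatment. Here too the groups overlapped and number 2 was highest. For both FOS and FOSB each SM library exceeded the untreated library of its number. FOSL1 stood at 288 to 327 CPM with SM, 247 to 331 CPM with DSM and 265 to 322 CPM without treatment.

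In the JUN family, JUND, which is expressed more constantly than other AP-1 genes in most cells, measured 35.8, 37.9 and 34.2 CPM with SM, 35.5, 40.6 and 37.8 CPM with DSM and 40.2, 41.7 and 41.4 CPM without treatment. All 3 SM libraries lay below all 3 untreated libraries, while the DSM libraries overlapped both groups. JUN, the founding member of the family, measured 179.9, 157 and 129 CPM with SM, 179.9, 174 and 153 CPM with DSM and 190.0, 173 and 144 CPM without treatment. Each SM library was below the untreated library of its number, though the groups overlapped. JUNB, a subunit induced together with FOS by growth factors, was 44.1 to 51.9 CPM with SM, 39.1 to 50.3 CPM with DSM and 40.7 to 52.4 CPM without treatment.

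EGR1, a zinc finger transcription factor and textbook output of ERK, measured 113, 169 and 87.6 CPM with SM, 81.4, 164 and 74.5 CPM with DSM and 102, 140.0 and 70.7 CPM without treatment. Each SM library exceeded the untreated and the DSM library of its number, and the groups overlapped widely. PHLDA1 measured 1184, 865 and 869 CPM with SM, 1289, 1027 and 990.3 CPM with DSM and 1312, 1009 and 949 CPM without treatment. Within each number the SM library was the lowest of the 3. IER2, a nuclear protein gene of the early response, measured 109, 141 and 108 CPM with SM, 94.0, 131 and 103 CPM with DSM and 108, 134 and 106 CPM without treatment. Within each number the DSM library was the lowest. IER3 stood at 275 to 371 CPM with SM, 299 to 368 CPM with DSM and 278 to 390 CPM without treatment.

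SM against untreated asked whether streptomycin moved these genes. Without the block, edgeR's quasi-likelihood test called 0 of the 10, against 0.0192% of all tested genes. JUND alone had an unadjusted p under 0.05, against 2.34% of genes, and DESeq2 and limma voom called 0 as well. JUND was also the only member whose SM and untreated libraries did not overlap, against 6.74% of genes. With the replicate block 4 of the 10 passed, against 2.74% of genes. FOSB was 1.47-fold higher with SM (log2 fold change 0.55, SE 0.10, edgeR adjusted p = 0.00197) and FOS 1.31-fold higher (0.39, SE 0.08, adjusted p = 0.00782), both in 3 of 3 pairs. PHLDA1 was lower by 0.17 on the log2 scale (SE 0.03, edgeR adjusted p = 0.0054) and JUND by 0.19 (SE 0.04, adjusted p = 0.0158), both lower in 3 of 3 pairs. Of all genes 1.2% passed as higher and 1.54% as lower in this fit. At an unadjusted p under 0.05 it had 5 of the 10, the fifth being JUN, against 14.8% of genes. All members but JUNB had the same direction in all 3 pairs, 9 of the 10 against 36.3% of genes. JUN had a log2 fold change of -0.12 (SE 0.04, edgeR adjusted p = 0.0775) and EGR1 of 0.24 (SE 0.10, adjusted p = 0.366), so neither passed in this fit. FOSL1 (0.06), JUNB (0.06), IER2 (0.04) and IER3 (-0.03) had 95% intervals that included 0. Across the 10 the median log2 fold change was 0.05, against -0.0009 over all tested genes, with 6 positive and 4 negative.

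These calls depended on single libraries. In the blocked fit the edgeR adjusted p of FOS was 0.0649 without SM replicate 1, 0.0827, 0.088 and 0.0547 without untreated replicates 1, 2 and 3, and 0.0779 without all libraries numbered 1. FOSB lost its call without untreated replicate 3 (adjusted p = 0.0564). JUND lost it without SM replicate 3 (0.147), untreated replicate 1 (0.148), untreated replicate 3 (0.228) or the libraries numbered 1 (0.0626), and PHLDA1 without untreated replicate 1 (0.101) or 2 (0.118). Other changes brought calls. EGR1 passed by limma voom (adjusted p = 0.0453), with no filter on low counts (8.55e-08), and without DSM replicate 1 (0.000663), DSM replicate 2 (0.0295), untreated replicate 1 (0.0112) or the libraries numbered 1 (0.000288). JUN passed with no filter (adjusted p = 0.0167) and without SM replicate 1 (0.0148), DSM replicate 1 (0.0479) or DSM replicate 3 (0.0467). Directions of the 4 called genes did not change, with log2 fold changes of 0.29 to 0.50 for FOS, 0.49 to 0.60 for FOSB, -0.22 to -0.15 for JUND and -0.19 to -0.14 for PHLDA1.

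DSM against untreated gave no call. Without the block edgeR called 0 of the 10 and 0% of all genes. At an unadjusted p under 0.05 it had 0 of the 10, against 0.659% of genes. With the block it again called 0 of the 10 and 0% of genes, and DESeq2 and limma voom called 0 with and without the block. IER2 (log2 fold change -0.09, SE 0.04, edgeR adjusted p = 0.999) and JUND (-0.12, SE 0.04, adjusted p = 0.999) had an unadjusted p under 0.05 in the blocked fit, 2 of the 10 against 4.16% of genes. These 2 were also the members with the same direction, lower, in all 3 pairs, against 29.5% of genes with the same direction in either sense. For FOS the 95% interval of the log2 fold change was -0.07 to 0.28, for FOSB -0.11 to 0.32 and for EGR1 -0.25 to 0.25. Changes within these intervals were not excluded. PHLDA1 was more narrowly bounded at -0.05 to 0.09. No member's DSM and untreated libraries were fully apart, against 4.42% of genes.

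**Figure D2:**
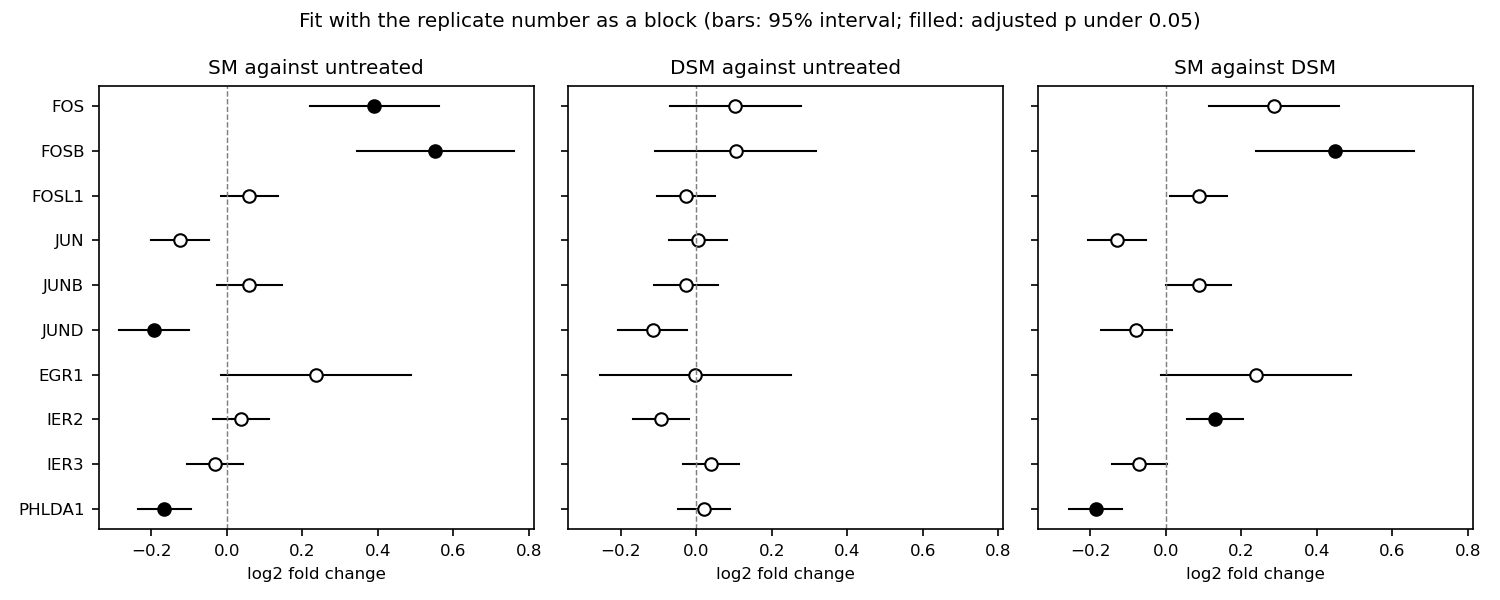
Log2 fold change of each gene from the fit blocked on the replicate number for SM against untreated (left), DSM against untreated (middle) and SM against DSM (right); bars are 95% intervals and filled points have an edgeR adjusted p under 0.05. Filled points are FOS, FOSB, JUND and PHLDA1 on the left, none in the middle, and FOSB, IER2 and PHLDA1 on the right.

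SM and DSM were compared directly at the same dose and time. Without the block edgeR called 0 of the 10 and 0% of genes, with 0 of the 10 at an unadjusted p under 0.05 against 2.54% of genes, and DESeq2 and limma voom also called 0. No member had SM and DSM libraries that did not overlap, against 6.56% of genes. With the block 3 of the 10 passed, against 3.88% of genes. FOSB was 1.36-fold higher with SM than with DSM (log2 fold change 0.45, SE 0.10, edgeR adjusted p = 0.0102). IER2 was 9.51% higher (0.13, SE 0.04, adjusted p = 0.0416), and PHLDA1 was lower by 0.19 on the log2 scale (SE 0.03, adjusted p = 0.00158). All 3 had the same direction in 3 of 3 pairs, which held for 7 of the 10 members and 32.5% of genes. At an unadjusted p under 0.05 the blocked fit had 7 of the 10, against 16.2% of genes. Of all genes 1.73% passed as higher and 2.15% as lower with SM in this fit. FOS (0.29, 95% interval 0.12 to 0.46, edgeR adjusted p = 0.0531) and JUN (-0.13, -0.21 to -0.05, adjusted p = 0.0518) missed the threshold. JUND differed by -0.08 (95% interval -0.17 to 0.02), so for JUND a difference between the compounds was not shown, nor were the compounds shown to act alike. EGR1 differed by 0.24 with an interval of -0.01 to 0.49. IER2 lost its call whichever library was left out (edgeR adjusted p = 0.0579 to 0.313), by DESeq2 (0.0517) and with library totals in place of TMM factors (0.0559). FOSB lost it without SM replicate 2 (0.0609) or DSM replicate 2 (0.146). PHLDA1 passed with every library left out in turn (adjusted p = 0.000429 to 0.0258). Leaving out libraries also brought calls. FOS passed without SM replicate 3 or DSM replicate 3. JUN passed without SM replicate 1, DSM replicate 1 or all libraries numbered 1, and EGR1 without DSM replicate 2 or untreated replicate 1. This comparison and SM against untreated share the SM libraries.

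For 9 of the 10 genes the replicate number accounted for more of the variation than the treatment did. The median share of the sum of squares of log2 CPM taken by the number was 84.9% over the 10 genes, by the treatment 10.6% and by the rest 4.64%. Over all tested genes these medians were 52.2%, 14.2% and 24.4%. Over the 10294 tested genes of at least 5 mean CPM they were 60.4%, 12.8% and 18.9%. JUND was the exception, with 64.1% by treatment and 23.1% by number. FOSB had the widest range of the 10, 4.37-fold between its lowest and highest library. What libraries of 1 number shared is not given in the sources used here.

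**Figure D3:**
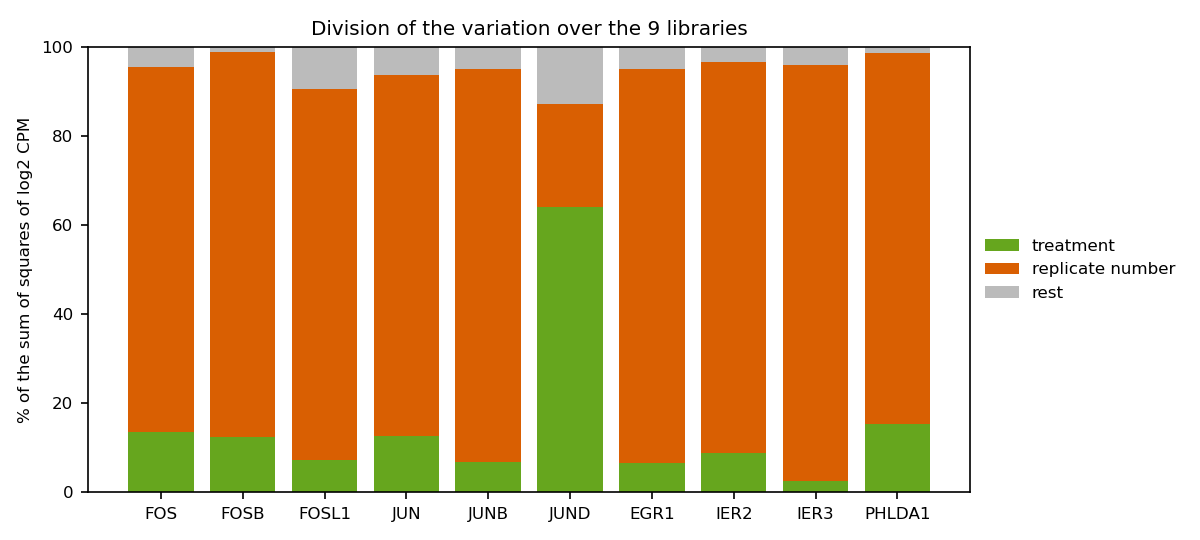
Share of the sum of squares of log2 CPM over the 9 libraries that goes with the treatment, with the replicate number and with neither, for each gene, in percent. The number takes most of each bar except that of JUND, where treatment takes 64.1%.

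Contrasts between the numbers, each over the 3 treatments in the blocked fit, were added after the data were seen. The 3 libraries of a number are 1 of each treatment, so the SD given for a number is over treatments. The SE and adjusted p rest on the spread left after treatment and number. They do not measure the spread between independent repeats of a number, since each number occurs once. Any difference between numbers was called for 9 of the 10 genes (all but JUND, edgeR adjusted p = 0.113), against 40.7% of all genes. For number 2 against number 1 the share of genes called was 35.9% and 9 of the 10 members passed. For number 3 against number 1 it was 36.8%, with 7 of the 10. Number 2 against number 3 was called for only 3.68% of genes, yet for 8 of the 10 members, all higher in number 2. EGR1 was 2.04-fold higher in number 2 than in number 3 (log2 fold change 1.03, SE 0.10, edgeR adjusted p = 0.0051), averaging 158 ± 15.4 CPM and 77.6 ± 8.85 CPM (SD, n = 3 each). FOSB was 1.85-fold higher (7.81 ± 1.68 and 4.22 ± 0.857 CPM) and FOS 1.79-fold higher (14.2 ± 2.12 and 7.92 ± 0.595 CPM). All 3 libraries numbered 2 lay above all 3 numbered 3 for each of these genes. IER2 (log2 fold change 0.35), IER3 (0.30), JUN (0.24), FOSL1 (0.19) and JUNB (0.16) also passed, while JUND (0.09) and PHLDA1 (0.05) did not. With 1 library left out 6 to 8 members passed, the lowest count without DSM replicate 2, and FOSL1 and JUNB were the genes that could lose their call (edgeR adjusted p up to 0.0698 and 0.277). Without SM replicate 2, the library with the smallest total, 8 passed. The background moved more: the 575 genes called became 177 without untreated replicate 3, 242 without DSM replicate 2, 246 without untreated replicate 2, 276 without DSM replicate 3 and 863 without SM replicate 2.

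Number 1 had another pattern. PHLDA1 was higher in number 1 than in either of the other numbers, with log2 fold changes of -0.39 for number 2 against number 1 and -0.43 for number 3 against number 1 (SE 0.03 each, edgeR adjusted p = 4.48e-09 and 6.29e-10). JUN and IER3 were also highest in number 1 and lowest in number 3. FOSB by contrast was lowest in number 1, at 2.64 ± 0.657 CPM (SD, n = 3), and 2.95-fold higher in number 2 than there. FOS and IER2 each differed by 0.03 on the log2 scale between number 3 and number 1 and did not pass (edgeR adjusted p = 0.809 for FOS and 0.545 for IER2). These contrasts share the libraries numbered 1.

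**Figure D4:**
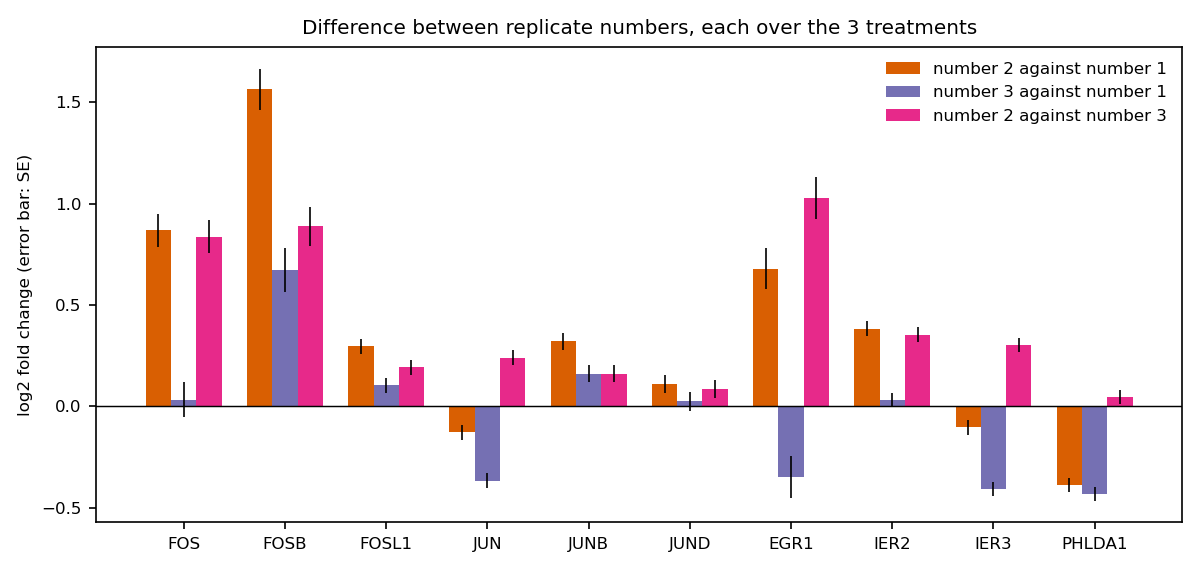
Log2 fold change of each gene between replicate numbers, each over the 3 treatments, from the blocked fit; bars start at 0 and error bars are standard errors. The bars for number 2 against number 3 are all above 0 and reach 1.03 for EGR1, and those of number 3 against number 1 reach -0.43 for PHLDA1.

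Other genes of the same response were followed in 7 lists of 167 genes. Number 2 against number 3 called 3.68% of all tested genes. There 20 of 41 tested other immediate early genes passed as higher and 0 as lower (48.8%). Their median log2 fold change was 0.17, against 0.002 over all tested genes. EGR3, a relative of EGR1, led with 1.03 (SE 0.08), followed by KLF2, a zinc finger factor (0.57), RHOB, a small GTPase (0.45), and CXCL8, the chemokine IL-8 (0.44). Of 21 feedback and output genes of ERK 9 were higher and 1 lower, among them the phosphatases DUSP5 (0.70) and DUSP2 (0.45), the EGF receptor inhibitor ERRFI1 (0.35) and the receptor EPHA2 (0.24). Of 14 AP-1 target genes 7 were higher and 0 lower, among them PLAUR, the urokinase receptor (0.54), PLAU, urokinase (0.44), and the integrin gene ITGA2 (0.40). The EGF receptor ligands EREG (0.75), AREG (0.72) and HBEGF (0.51) were higher and FGF9 lower (-0.30), out of 18 ligands and receptors. Of 13 other AP-1 family genes ATF3 (0.33) and MAFF (0.29) passed. The 36 genes of the chain from RAS to the MAP kinases and their transcription factors gave 0 calls in this contrast. That lies near the 3.68% of all genes. Inducible heat shock genes went the other way, with 4 of 11 lower in number 2 and 0 higher: HSPA1B (-0.42), HSPA1A (-0.33), DNAJB1 (-0.20) and BAG3 (-0.13). The part of the heat shock differences in those of the immediate early genes was not tested.

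Against number 1 the directions of the lists were mixed. For number 2 against number 1, FOS, FOSB and EGR1 were higher. There the AP-1 targets had 3 higher and 7 lower of 14 (median log2 fold change -0.19). The ERK feedback and output genes had 5 higher and 6 lower of 21, and the other AP-1 family genes 5 higher and 2 lower of 13. Other immediate early genes had 16 higher and 5 lower of 41, the RAS to MAP kinase chain 4 higher and 11 lower of 36, and heat shock genes 0 higher and 8 lower of 11. For number 3 against number 1 EGR1 was lower (log2 fold change -0.35, SE 0.10, edgeR adjusted p = 0.0441) and FOSB higher (0.67), while FOS did not pass. With libraries left out the edgeR adjusted p of EGR1 rose to as much as 0.206. The AP-1 targets had 0 higher and 12 lower in this contrast, and the ERK feedback and output genes 2 higher and 8 lower. Other immediate early genes had 4 higher and 14 lower, and other AP-1 family genes 3 higher and 1 lower. The shares of all genes called in these contrasts were 35.9% and 36.8%.

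Between treatments, list genes were called in the blocked fit only, and their counts are to be read against 2.74% of all genes called for SM against untreated. SM against untreated called MYC (1.33-fold higher, 916 ± 159 CPM with SM and 686 ± 78.5 CPM untreated, SD, n = 3 each, log2 fold change 0.41, SE 0.04, edgeR adjusted p = 3.66e-07), the growth factor target that drives cell growth. It also called PPP1R15A (0.27), the stress-induced phosphatase subunit GADD34. For MYC and PPP1R15A alike the SM and untreated libraries overlapped. These were 2 of 41 other immediate early genes, with 0 lower, a share of 4.88% that lies near that of all genes. Among 13 other AP-1 family genes the small MAF genes MAFF (0.29) and MAFG (0.18) were higher and 0 lower. One call each fell on ERRFI1 (0.19) of 21 ERK feedback and output genes and on INSR, the insulin receptor (0.31), of 18 ligands and receptors, shares of 4.76% and 5.56% that lie near that of all genes. The heat shock gene HSPB1 was lower (-0.18), 1 of 11. The RAS to MAP kinase chain had 0 of 36 called, with its most abundant members PTPN11 at 353 ± 7.28 CPM with SM and 356 CPM untreated and GRB2 at 245 CPM in both.

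The blocked fit of SM against DSM, which shares the SM libraries and called 3.88% of all genes, had these calls. Of the other AP-1 family genes ATF3 (0.37), MAFF (0.30) and MAFG (0.21) were higher with SM, 3 of 13, and of the other immediate early genes 4 of 41, among them MYC (0.41), PPP1R15A (0.25) and SNAI1 (0.18). ERRFI1 (0.25) and ETV4 (0.12), an ETS factor, were higher of the ERK feedback and output genes, and HSPA1B (0.16) was higher and HSPB1 (-0.22) lower of the heat shock genes. The ligands and receptors and the RAS to MAP kinase chain gave 0. DSM against untreated gave 0 calls in all 7 lists, and the blocked fit called 0% of all tested genes there. At an unadjusted edgeR p under 0.05 that fit had 650 genes, or 4.16%.

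Finally, the genes whose profile over the 9 libraries was most like those of the 3 most variable members were ranked by the root mean square difference of centred log2 CPM, among 10293 genes of at least 5 CPM. For EGR1 the nearest were FOS (0.20), EGR3 (0.23) and CDKN1A (0.23), and for FOS they were LINC00941 (0.20), EGR1 (0.20) and LUCAT1 (0.21). FOSB, the most variable, had no gene closer than MT1G (0.30), followed by ZNF469 (0.30) and CD55 (0.30). The SD of log2 CPM was 0.48 for EGR1, 0.47 for FOS and 0.73 for FOSB. All profiles share the same 9 libraries and their scaling.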

How the data were processed

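Libraries were made from total RNA using the Universal Plus mRNA-seq kit of NuGEN, per the labels' protocols. The submitters' processing notes list, with no role or order, the build hg38 and the tools TopHat2 2.1.1, cutadapt 3.4, featureCounts 2.0.0, MultiQC 1.10.1, bcl2fastq 2.20.0.422, FastQC 0.11.9 and DESeq2 1.26.0. Which annotation and strand setting were used is not given there, so reads of overlapping or antisense genes cannot be told apart. The values used are the deposited raw counts per gene, which the authors did not normalize. A second table of the authors was not used.

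The analysis used edgeR 4.0.16 and limma 3.58.1 under R 4.3.3. The function filterByExpr, by group with a minimum count of 10 and a minimum total of 15, chose the genes, and TMM factors scaled the libraries. CPM is the count over the scaled total, and log2 CPM used a prior count of 2. All 9 libraries went into 1 robust quasi-likelihood fit with a term for group alone, tested two-sided with Benjamini-Hochberg adjustment over all tested genes at 0.05. As a check for duplicate libraries, chi-square per degree of freedom between replicates, which covers counting error only, was 6.50 to 34.0. Same-numbered libraries correlated in their deviations from the group means (0.227 to 0.582 over 9 pairs, against -0.404 to 0.161 for different numbers), so the numbers pair the libraries, as a finding of the data, and a fit with the number as a block was run beside the first. The SE is the log2 fold change over the square root of F, and intervals cover 95%. Exon lengths are unions of GENCODE v29 basic exons, which may differ from the annotation counted. The fits were tested on simulated data.

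The members and lists were chosen with earlier results of these data known. All members are named. Of each list, up to 4 called genes of at least 5 CPM with the largest change in the blocked fit are named, or, where there was no call, the pair with the highest level (printed once per list at most). The calls of the AP-1 target list in the comparisons of SM are not reported here. Alternatives were DESeq2 size factors, library totals, no or a stricter filter (1 CPM), DESeq2 1.42.0, limma voom, only the 2 groups compared, no robust estimation, the block, and leaving out each library or all libraries numbered 1.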

Additional observations from a re-analysis of the deposited data

Results flagged for a closer look

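In the blocked fit 3 genes differed between SM and DSM at the same dose, which is a difference between the effects of the compounds measured against the same untreated libraries. FOSB was higher with SM than with DSM by 0.45 on the log2 scale and PHLDA1 differed by -0.19. IER2 differed by 0.13, and its libraries lay above the untreated library of their number in all 3 SM pairs and below it in all 3 DSM pairs. The SM pair of number 1 differed by only 0.004 on the log2 scale. Against untreated, IER2 was called for neither SM (0.04, edgeR adjusted p = 0.697) nor DSM (-0.09, adjusted p = 0.999). The call of IER2 was lost in every fit with 1 library left out.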

How the results depend on the processing

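Beside the losses already given for single genes, results changed as follows. Without the block, members called stayed at 0 for SM against untreated, DSM against untreated and SM against DSM under every alternative run except the block, which gave 4, 0 and 3, and leaving out all libraries numbered 1 (1 for SM against DSM, where leaving out a single replicate gave 0). All genes called for SM against untreated were 5 with no filter, 14 by DESeq2, 0 with only the 2 groups, 428 with the block, 0 to 3 with a single library left out and 73 without the 3 libraries numbered 1, against 3. For SM against DSM they were 3 with no filter, 11 by DESeq2, 606 with the block, 0 with any single library left out and 186 without the 3 libraries numbered 1, against 0. With the block and no filter, all genes called were 701 for SM against untreated and 7 for DSM against untreated, and members called for SM against DSM were 6. In that fit FOS, JUN and EGR1 also passed for SM against DSM, and EGR1 passed there by limma voom. With the block and a replicate, or all libraries numbered 1, left out, members called ranged from 1 to 6 for SM against untreated and from 1 to 3 for SM against DSM. All genes called then ranged from 149 to 569 for SM against untreated, from 267 to 846 for SM against DSM and from 0 to 1 for DSM against untreated.

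Signs turned under some alternatives, most often without the block and with libraries left out. For DSM against untreated EGR1 was -0.0090 by limma voom and -0.0023 with the block, where library totals gave 0.0052 and a stricter filter 0.00044. JUN was 0.0070 with library totals, 0.0016 with a stricter filter, 0.0046 by limma voom and 0.0053 with the block. With a replicate, or all libraries numbered 1, left out and no block, log2 fold changes ranged for DSM against untreated as EGR1 -0.42 to 0.30, FOS -0.23 to 0.44, FOSB -0.36 to 0.65, FOSL1 -0.14 to 0.075, IER2 -0.24 to 0.025, IER3 -0.087 to 0.15, JUN -0.10 to 0.090, JUNB -0.11 to 0.077 and PHLDA1 -0.11 to 0.17. For SM against untreated they ranged as EGR1 -0.059 to 0.51, FOSL1 -0.0058 to 0.14, IER2 -0.098 to 0.15, IER3 -0.15 to 0.084 and JUNB -0.027 to 0.16. For SM against DSM they ranged as EGR1 -0.091 to 0.66, FOS -0.060 to 0.62, FOSB -0.067 to 0.90, FOSL1 -0.018 to 0.20, IER2 -0.010 to 0.28, IER3 -0.16 to 0.049 and JUNB -0.012 to 0.17. With the block they ranged as EGR1 -0.12 to 0.16, FOSL1 -0.069 to 0.025, JUN -0.044 to 0.060 and JUNB -0.053 to 0.0014 for DSM against untreated and as IER3 -0.052 to 0.0099 for SM against untreated. For number 3 against number 1 they ranged as FOS -0.054 to 0.15, IER2 -0.014 to 0.068 and JUND -0.012 to 0.062. The cause was not tested.

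With 3 libraries a group and 1 line, dose and time, the blocked calls rest on few residual degrees of freedom. The quasi-likelihood fit adds to these by sharing the spread over genes. With all libraries no member was called without the block. Where an arm lost a library, the spread came from all groups. FOSB had the fewest reads of the 10 genes, so counting error weighs most on it.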
